A study of Penicillium oxalicum with 6 samples.

Results

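The accessory hemicellulase and pectinase genes described here are 24 *Penicillium oxalicum* genes of plant cell-wall-degrading enzymes (CWDEs). By their entries, these enzymes act on xylan side chains and xylo-oligosaccharides, mannan, galactosides, arabinan and pectin, rather than on cellulose or the xylan backbone. The 24 genes were taken from the study's supplementary list of 1114 differentially expressed genes, which marks 48 of them as CWDE genes. Genes of such enzymes outside that list, among the 9834 genes measured, were not identified here. Counts by class below therefore cover listed genes only, not whole enzyme classes. The 24 genes were left after the entries for cellobiohydrolase, endoglucanase, β-glucosidase, endo-β-1,4-xylanase, lytic polysaccharide monooxygenase and expansin had been set aside. Some entries were cut off in the text of the list used here. Those reading Feruloyl, Acetyl, Pectate and Pectin were taken as feruloyl esterase, acetyl esterase, pectate lyase and pectin esterase from the listed families and domains, and 2 AA9 genes reading Cellulose were taken as lytic polysaccharide monooxygenases. The study selected its list on the same 6 libraries, at a probability of at least 0.8 and an absolute log2 ratio of mean FPKM of at least 1. All differences between the strains given here for the 24 genes are therefore a description of genes chosen for having a difference. Calls at an adjusted p are given below as part of this description. Neither the calls nor their stability under other settings are an independent test of these genes.

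The study asked how the transcriptome on cellulose changes when *PoxMKK1*, which encodes a mitogen-activated protein kinase kinase of the Ste7 type, is deleted. The mutant Δ*PoxMKK1* carries a G418 resistance gene in place of *PoxMKK1* (*POX07948*), and its background strain Δ*PoxKu70* has the intact gene. Both strains are described as carrying a hygromycin resistance gene in place of *PoxKu70* (*POX01583*), a gene of non-homologous end joining whose loss eases gene replacement. Mycelia were grown for 24 h with 1% glucose at 28 °C and then for 24 h with 2% Avicel, a microcrystalline cellulose, before messenger RNA was sequenced from 3 replicates of each strain, labelled F, S and T. A complemented strain was not analysed here, so the comparison rests on the deletion strain alone.

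Total expected counts, the estimated numbers of reads assigned to genes, lay between 13687087 and 14042791 per library. *POX07948* had 2, 1 and 0 counts in Δ*PoxMKK1* and 656, 592 and 753 counts in Δ*PoxKu70*, in replicates F, S and T. *POX01583* had 942 to 1063 counts in Δ*PoxMKK1* and 1092 to 1365 counts in Δ*PoxKu70*, although it is described as replaced in both strains. Where in the gene these reads lie was not examined, so the counts do not show whether the gene is intact. The 3 conidiation regulator genes *BrlA*, *AbaA* and *FlbD*, which drive the formation of asexual spores, were all called higher in Δ*PoxMKK1*, with a summed FPKM of 915.3 to 996.0 in Δ*PoxMKK1* and 126.5 to 256.3 in Δ*PoxKu70*. Whole mycelium was sequenced, so a change in the share of spore-forming cells cannot be told apart from a change in the RNA of each cell, and the part of such a shift in the values below was not tested.

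Xylan, mannan and pectin are the non-cellulosic polysaccharides of the plant cell wall. Their backbones are cut by endo-acting enzymes, while accessory enzymes remove the arabinosyl, galactosyl, acetyl and feruloyl groups that block access and split the released oligosaccharides into sugars. Pectin is degraded by polygalacturonases, which hydrolyse the galacturonan backbone, by lyases, which cleave it by elimination, and by pectin methylesterases, which take off its methyl groups. In filamentous fungi such as *P. oxalicum* many of these genes respond to the carbon source, and ClrB is a transcriptional activator of cellulase genes. A CBM1 is a small fungal module that binds cellulose and can attach enzymes with other substrates to it.

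All 24 genes passed the filter on low counts. On the scale of edgeR's log2 fold change (Δ*PoxMKK1* over Δ*PoxKu70*), 18 genes were lower and 6 were higher in Δ*PoxMKK1*. A gene was called at a Benjamini-Hochberg adjusted p below 0.05 over all tested genes, with a log2 fold change of at most -1 or at least 1. By this rule 17 of the 24 genes were called lower, against 8.93% of the 8749 tested genes, and 6 were called higher, against 10.8% of the tested genes. The FPKM values of the 2 strains did not overlap for 23 of the 24 genes, against 59.0% of the tested genes. Because these genes were chosen on this contrast, nothing is read from those counts. The same holds for the counts of calls and of overlap by class and family below, which stand beside the same shares of tested genes. Their median log2 fold change was -1.50, and that of all tested genes was 0.01. Mean FPKM of the 18 lower genes was reduced by 54.0 to 92.2%, and the 6 higher genes were raised 3.36- to 71.1-fold.

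**Figure D1:**
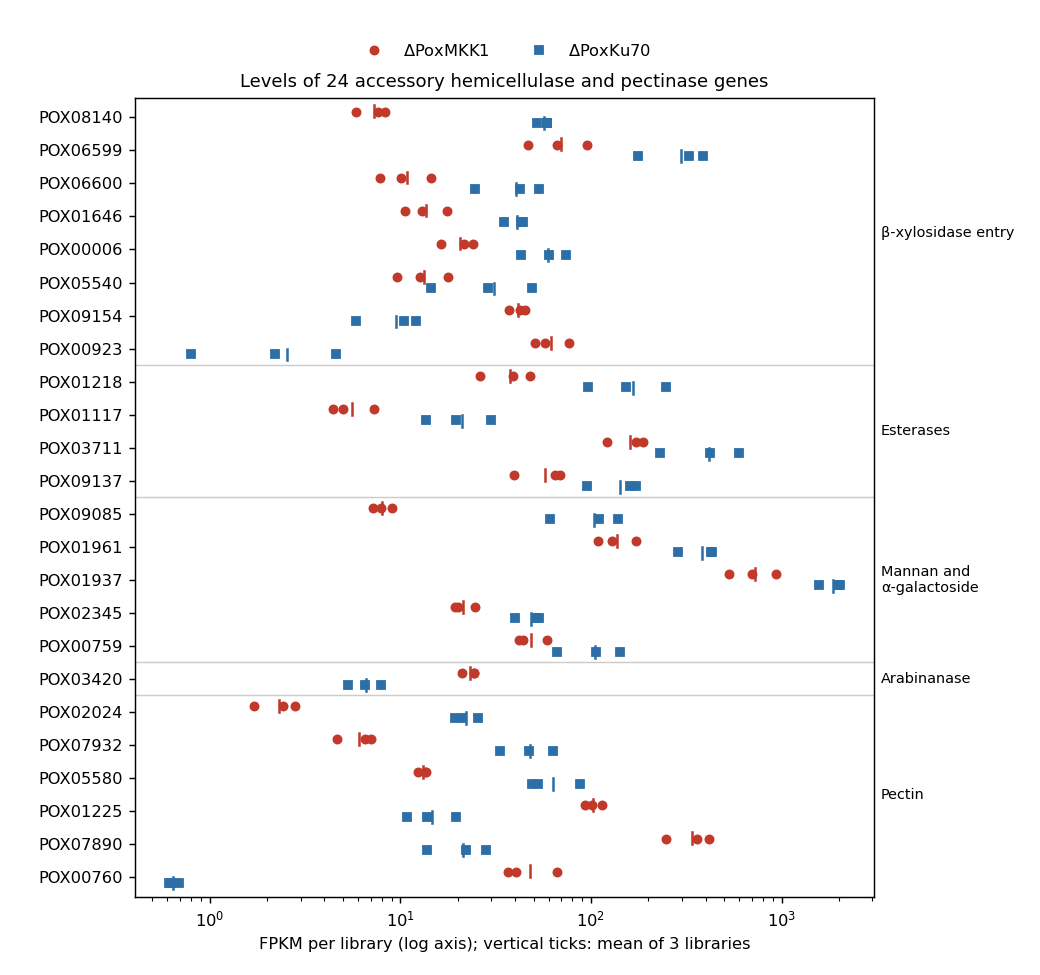
FPKM of each of the 24 genes in each library on a log axis, with 3 points for ΔPoxMKK1 (red circles) above 3 points for ΔPoxKu70 (blue squares), a tick at each mean, and genes grouped by class. The strains are separate in every row except *POX05540*, and *POX00760*, at 0.61 to 0.69 FPKM in ΔPoxKu70, is the lowest gene there.

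The list enters 8 genes as β-xylosidases, enzymes that release xylose from the ends of xylo-oligosaccharides. Of these, 5 were called lower, 2 were called higher and 1 was not called, and their median log2 fold change was -1.61. The 8 entries span 3 glycoside hydrolase (GH) families: 5 genes are GH43, 2 are GH62 and 1 is GH3. GH43 also holds α-L-arabinofuranosidases and arabinanases. GH62 is known as a family of α-L-arabinofuranosidases, which cleave arabinosyl side chains from xylan, so the entry does not settle the substrate of a gene. By listed domains the GH43 genes are not alike. *POX08140*, *POX00923* and *POX09154* share a domain that *POX00006* and *POX06600* lack. The class and its values therefore follow the entry, and some of its genes may act on arabinan.

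The 5 GH43 genes went in both directions. *POX08140* had 5.88, 7.68 and 8.34 FPKM in Δ*PoxMKK1* (F, S and T throughout), against 52.1, 59.1 and 58.9 FPKM in Δ*PoxKu70* (log2 fold change -3.02, SE 0.145). Every mutant library was far below every control library, and the SE was the smallest among the 24 genes. *POX06600*, which also has a CBM1, had 14.5, 7.84 and 10.1 FPKM in Δ*PoxMKK1*, against 42.6, 53.6 and 24.5 FPKM in Δ*PoxKu70* (log2 fold change -1.96, SE 0.340). For *POX00006* the values were 24.1, 16.3 and 21.5 FPKM in Δ*PoxMKK1* and 60.6, 74.4 and 43.0 FPKM in Δ*PoxKu70* (log2 fold change -1.59, SE 0.236). Both genes were lower in all mutant libraries, and in both the control value was highest in S and lowest in T.

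The opposite direction was seen for *POX00923* and *POX09154*. *POX00923* is entered as a β-xylosidase in the list, whereas the text of the paper counts it among β-glucosidase genes. *POX00923* had 57.6, 51.2 and 76.5 FPKM in Δ*PoxMKK1*, against 2.20, 0.80 and 4.60 FPKM in Δ*PoxKu70* (log2 fold change 4.55, SE 0.456). Its control values rest on 25, 9 and 51 counts, and without Δ*PoxKu70* replicate T the log2 fold change was 5.26. *POX09154* had 45.3, 37.3 and 42.3 FPKM in Δ*PoxMKK1*, against 10.5, 5.84 and 12.1 FPKM in Δ*PoxKu70* (log2 fold change 2.08, SE 0.246). These were the 2 most expressed of the 5 GH43 genes in Δ*PoxMKK1* and the 2 least expressed in Δ*PoxKu70*.

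Both GH62 genes were lower on average. *POX06599*, with a CBM1, had 95.8, 46.7 and 66.7 FPKM in Δ*PoxMKK1*, against 327, 387 and 176 FPKM in Δ*PoxKu70* (log2 fold change -2.16, SE 0.369). *POX05540* had 12.6, 9.58 and 17.7 FPKM in Δ*PoxMKK1*, against 28.8, 49.4 and 14.4 FPKM in Δ*PoxKu70* (log2 fold change -1.28, SE 0.448). The highest mutant library of *POX05540* lay above the lowest control library, and this was the gene of the 24 that was not called by edgeR. It was called by DESeq2, at -1.32, and by edgeR without Δ*PoxKu70* replicate T, at -1.65, whereas without Δ*PoxKu70* replicate S its log2 fold change was -0.77. The GH3 gene *POX01646* had 17.6, 10.6 and 13 FPKM in Δ*PoxMKK1*, against 44.0, 43.2 and 34.9 FPKM in Δ*PoxKu70* (log2 fold change -1.63, SE 0.202), with the groups well apart.

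The 4 genes entered as esterases were all called lower, with a median log2 fold change of -1.72. Acetyl esterases of carbohydrate esterase (CE) families remove acetyl groups from xylan, and feruloyl esterases cut the ester bonds that tie ferulic acid to arabinosyl side chains. *POX01218*, an acetyl esterase of CE1 with a CBM1, had 38.9, 26.3 and 47.9 FPKM in Δ*PoxMKK1*, against 153, 249 and 96.0 FPKM in Δ*PoxKu70* (log2 fold change -2.21, SE 0.382). *POX03711*, an acetyl esterase of CE5 and the second most expressed of the 24 genes in Δ*PoxKu70*, had 188, 121 and 172 FPKM in Δ*PoxMKK1*, against 421, 599 and 231 FPKM in Δ*PoxKu70* (log2 fold change -1.45, SE 0.352). Control replicate T of *POX03711* was only slightly above the highest mutant library, and without Δ*PoxMKK1* replicate S the gene was no longer called, at -1.28.

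Of the feruloyl esterase genes, *POX09137* (CE1 with a CBM1) had 64.9, 39.4 and 68.9 FPKM in Δ*PoxMKK1*, against 172, 160 and 95.2 FPKM in Δ*PoxKu70* (log2 fold change -1.37, SE 0.293). *POX01117*, whose protein has a tannase and feruloyl esterase domain but no listed family, had 7.24, 4.42 and 5.03 FPKM in Δ*PoxMKK1*, against 19.5, 29.8 and 13.7 FPKM in Δ*PoxKu70* (log2 fold change -1.98, SE 0.327). All 4 esterase genes had their lowest control value in T and their lowest mutant value in S, and in none did the strains overlap.

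**Figure D2:**
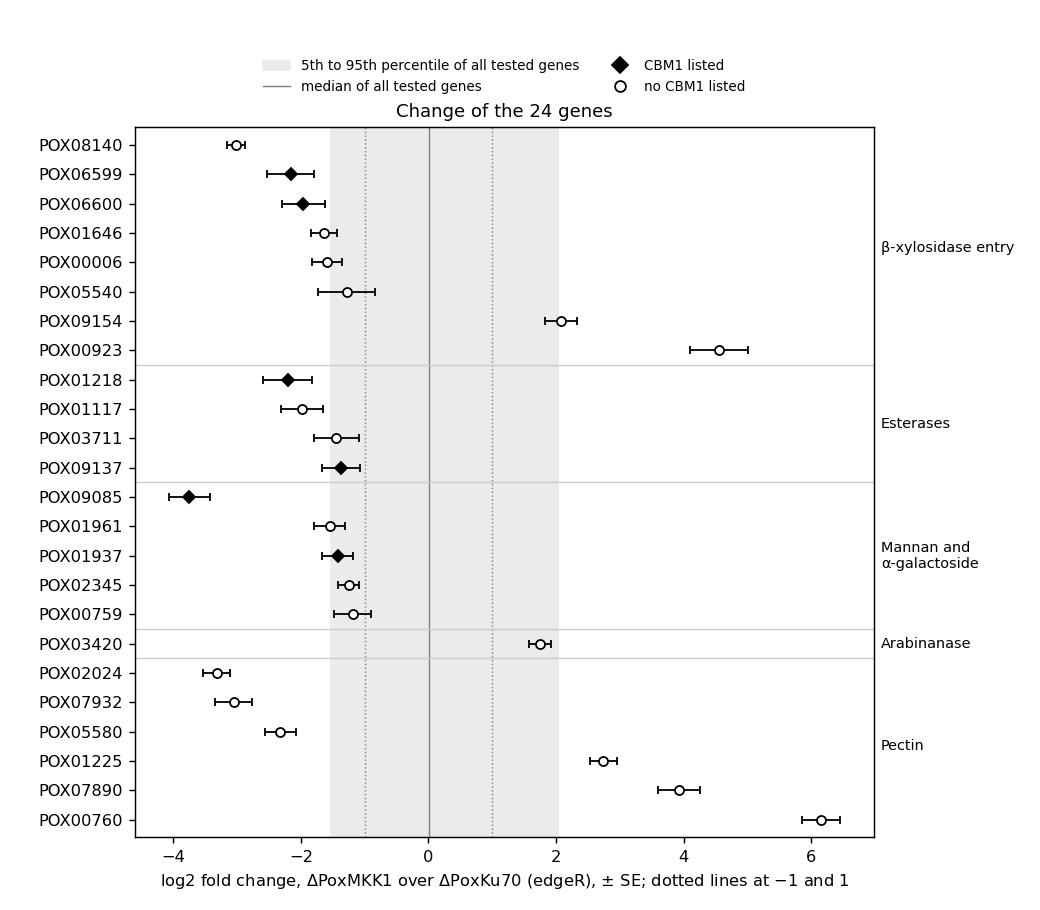
Log2 fold change of the 24 genes by edgeR, ΔPoxMKK1 over ΔPoxKu70, with bars of 1 SE, filled diamonds for the 6 genes with a CBM1 and open circles for the other 18. The grey band spans the 5th to 95th percentile of all tested genes, -1.52 to 2.03, the grey line is their median of 0.01, and every filled diamond lies to the left of -1.

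All 5 listed genes for mannan and α-galactosides were called lower, with a median log2 fold change of -1.42. Mannanase cuts the mannan backbone, β-mannosidase releases mannose from the fragments, and α-galactosidase removes galactosyl side groups. The β-1,4-mannanase gene *POX01937* (GH5 with a CBM1) had 938, 533 and 701 FPKM in Δ*PoxMKK1*, against 1966, 2027 and 1570 FPKM in Δ*PoxKu70* (log2 fold change -1.42, SE 0.243). It was the most expressed of the 24 genes in both strains and did not overlap with the next gene in either. On average it made up 36.7% of the summed FPKM of the 24 genes in Δ*PoxMKK1* and 46.9% in Δ*PoxKu70*.

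Of the GH2 β-mannosidase genes, *POX01961* had 173, 109 and 129 FPKM in Δ*PoxMKK1*, against 432, 428 and 287 FPKM in Δ*PoxKu70* (log2 fold change -1.55, SE 0.243). *POX00759* had 41.9, 58.9 and 43.9 FPKM in Δ*PoxMKK1*, against 141, 107 and 66.1 FPKM in Δ*PoxKu70* (log2 fold change -1.19, SE 0.293). This was the smallest difference among the called genes, the highest mutant library came close to the lowest control library, and the gene was no longer called without Δ*PoxMKK1* replicate F (-1.10), without Δ*PoxMKK1* replicate T (-1.12) or without Δ*PoxKu70* replicate F (-0.90).

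The α-galactosidase gene *POX09085*, which carries a CBM1 and is listed under GH27 and GH36, had 7.92, 7.19 and 9.06 FPKM in Δ*PoxMKK1*, against 110, 138 and 61.2 FPKM in Δ*PoxKu70* (log2 fold change -3.75, SE 0.322). By edgeR it was 13.4-fold lower in Δ*PoxMKK1*, the largest reduction among the 24 genes, and by mean FPKM it ranked 20 among them in Δ*PoxMKK1* and 8 in Δ*PoxKu70*. *POX02345*, the GH36 α-galactosidase gene, had 24.6, 19.3 and 19.98 FPKM in Δ*PoxMKK1*, against 53.7, 51.2 and 40.0 FPKM in Δ*PoxKu70* (log2 fold change -1.25, SE 0.163). The list also gives this gene model domains of a tyrosyl-tRNA synthetase, an enzyme of protein synthesis, so its reads may come from more than an α-galactosidase.

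The only gene entered as an arabinanase was higher in the mutant. *POX03420*, entered as an exo-α-L-1,5-arabinanase, an enzyme that takes arabinobiose off the ends of arabinan, and listed under GH93 among other families, had 24.4, 24.3 and 21.0 FPKM in Δ*PoxMKK1*, against 7.95, 6.55 and 5.29 FPKM in Δ*PoxKu70* (log2 fold change 1.75, SE 0.177). The values were close together within each strain and far apart between them.

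The 6 listed pectin genes divided evenly, with 3 called higher and 3 called lower and a median log2 fold change of 0.21. *POX00760*, entered as a pectinase and listed under the pectin methylesterase family CE8, had 66.5, 40.5 and 36.6 FPKM in Δ*PoxMKK1*, against 0.61, 0.69 and 0.63 FPKM in Δ*PoxKu70* (log2 fold change 6.15, SE 0.299). The underlying counts were 2796, 1693 and 1522 in Δ*PoxMKK1* and 26, 29 and 26 in Δ*PoxKu70*, and the gene ranked 10 among the 24 in Δ*PoxMKK1* and last in Δ*PoxKu70*. *POX07890*, a pectate lyase gene of polysaccharide lyase family PL1, had 248, 359 and 415 FPKM in Δ*PoxMKK1*, against 22.1, 28.3 and 13.7 FPKM in Δ*PoxKu70* (log2 fold change 3.93, SE 0.327). It ranked 2 among the 24 genes in Δ*PoxMKK1* and 18 in Δ*PoxKu70*, and its neighbours in the mutant order did not overlap with it.

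Polygalacturonase genes of GH28 went both ways. *POX01225* had 101, 114 and 93.0 FPKM in Δ*PoxMKK1*, against 13.8, 10.9 and 19.6 FPKM in Δ*PoxKu70* (log2 fold change 2.74, SE 0.212). *POX02024* had 2.81, 1.71 and 2.42 FPKM in Δ*PoxMKK1*, against 25.7, 21.1 and 19.4 FPKM in Δ*PoxKu70* (log2 fold change -3.31, SE 0.213). By mean FPKM *POX01225* was the fifth most expressed of the 24 genes in Δ*PoxMKK1* and *POX02024* the least expressed, whereas their values overlapped in Δ*PoxKu70*. *POX05580* had 12.4, 13.5 and 13.6 FPKM in Δ*PoxMKK1*, against 52.7, 87.2 and 48.9 FPKM in Δ*PoxKu70* (log2 fold change -2.32, SE 0.239). The CE8 pectin esterase gene *POX07932* had 6.51, 6.98 and 4.66 FPKM in Δ*PoxMKK1*, against 47.4, 63.4 and 33.2 FPKM in Δ*PoxKu70* (log2 fold change -3.05, SE 0.287). The strains were apart for all 6 genes, and both families with more than 1 pectin gene, GH28 and CE8, held genes of both directions. The CE8 genes differ in entry, and *POX07932* has listed domains that *POX00760* lacks, so they may not encode the same enzyme.

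Summed over the 24 genes, FPKM was 2219, 1666 and 2039 in Δ*PoxMKK1*, against 4206, 4680 and 2970 in Δ*PoxKu70*, a ratio of strain means of 0.5. The strains did not overlap in this sum. The 18 lower genes summed to 1357 ± 318 FPKM in Δ*PoxMKK1* and 3896 ± 884 FPKM in Δ*PoxKu70*, and the 6 higher genes to 618 ± 71.1 FPKM in Δ*PoxMKK1* and 55.4 ± 2.11 FPKM in Δ*PoxKu70* (SD, n = 3 each). The higher genes thereby made up 24.5, 37.6 and 33.6% of the sum in Δ*PoxMKK1*, against 1.36, 1.13 and 1.89% in Δ*PoxKu70*.

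By class, the ratio of the strain means of summed FPKM was 0.445 for the β-xylosidase entries, 0.350 for the esterases and 0.376 for the mannan and α-galactoside genes. It was 3.02 for the pectin genes, which summed to 513 ± 67.0 FPKM in Δ*PoxMKK1* and 170 ± 38.6 FPKM in Δ*PoxKu70* (SD, n = 3 each), although as many of them were lower as higher. *POX07890* alone gave 56.8, 67.0 and 73.4% of the pectin sum in Δ*PoxMKK1*, against 13.6, 13.4 and 10.1% in Δ*PoxKu70*. The other class sums also rested largely on 1 gene each. In Δ*PoxKu70*, the GH62 gene *POX06599* gave on average 297 of the 537 FPKM of the β-xylosidase entries. There *POX03711* gave 417 of the 746 FPKM of the esterases. *POX01937* gave 1854 of the 2493 FPKM of the mannan and α-galactoside genes.

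**Figure D3:**
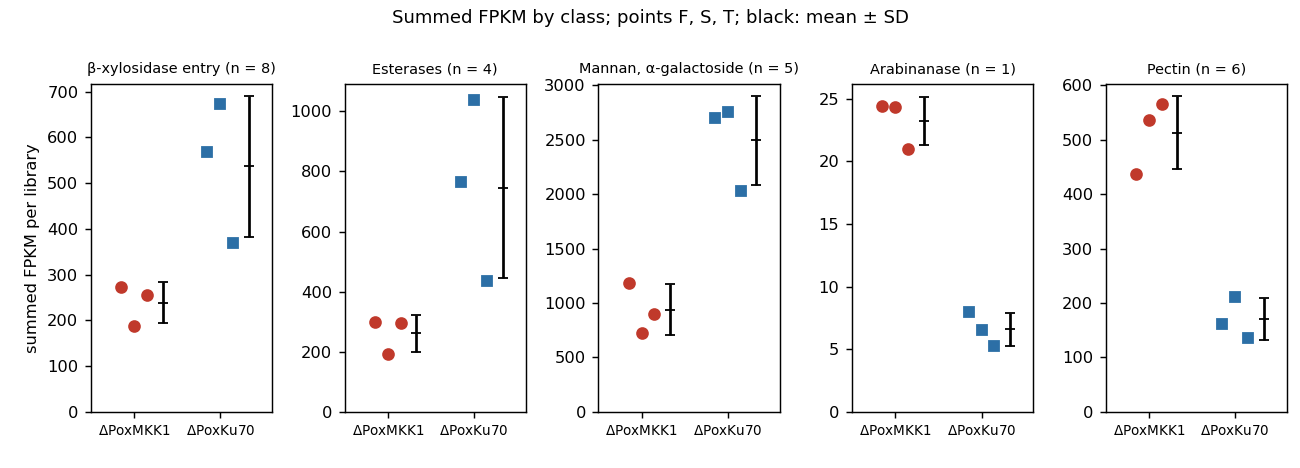
Summed FPKM of the genes of each class in each library, in replicates F, S and T from left to right, for ΔPoxMKK1 (red) and ΔPoxKu70 (blue), each with its mean and SD in black, on axes that start at 0 and differ in scale. The sums of the β-xylosidase entries, esterases and mannan genes are lower in all 3 ΔPoxMKK1 libraries, and those of the arabinanase and the pectin genes are higher.

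Mean FPKM in Δ*PoxKu70* was 100 or more for 8 genes, all of which were called lower, and under 10 for 4 genes, all of which were called higher. For genes that low in Δ*PoxKu70* the direction was set by the choice of genes, since a gene near 0 in one strain could enter the list only by being higher in the other, and nothing is read from it. In the order by mean FPKM, neighbouring genes did not overlap in 4 of 23 pairs in Δ*PoxMKK1* and in 3 of 23 pairs in Δ*PoxKu70*, so most neighbouring ranks do not differ beyond the spread of the libraries.

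A CBM1 is listed for 6 of the 24 genes, *POX06599*, *POX06600*, *POX01218*, *POX09137*, *POX01937* and *POX09085*, which belong to 3 of the classes. All 6 were called lower, with a median log2 fold change of -2.06. Of the 18 genes without a CBM1, 11 were called lower, 6 were called higher and 1 was not called, with a median of -1.36. Of all tested genes, 8.93% were called lower and 10.8% higher. The median of mean FPKM in Δ*PoxKu70* was 154 with a CBM1 and 35.8 without. The 4 genes under 10 FPKM in Δ*PoxKu70* all lack a CBM1 and are among the 6 higher genes. Their direction was set by the choice of genes, as stated above. The split by CBM1 is thus also a split by level, and nothing is read from these counts. Among the 24 other CWDE genes of the list, which encode cellulases, β-glucosidases, xylanases and related enzymes, all 11 with a CBM1 were called lower, with a median log2 fold change of -1.66, and of the 13 without a CBM1 11 were called lower and 2 higher, with a median of -2.11. The median was thus lower with a CBM1 among the accessory genes and lower without one among the other CWDE genes. Those 24 genes had 22 called lower and 2 called higher and a median log2 fold change of -1.96, and their median of mean FPKM in Δ*PoxKu70* was 337, against 48.1 for the accessory genes. The difference between the groups of genes was not tested, since both were chosen on this contrast.

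A further 9 genes of the list belong to the families of the accessory genes, or to the related families GH78 and CE16, but have no CWDE entry. Of these 6 were called lower and 3 were called higher, with a median log2 fold change of -1.56. The 3 higher genes were *POX01390* of CE1 (2.96), *POX05132* of CE5 (2.47) and *POX06900* of GH2 (3.6). The accessory genes of these families were all lower, but they are few, and CE5 has only *POX03711*. Lower genes without an entry were also found in CE1 and CE5: *POX01099* of CE1 (-1.56), *POX09578* of CE10 and CE1 (-1.76) and *POX03005* of CE5 (-2.285).

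The spread between replicates was described by the coefficient of variation of FPKM. Its median over the accessory genes was 22.8% in Δ*PoxMKK1* and 32.5% in Δ*PoxKu70*, against 9.29% and 13.01% over all tested genes in the same strains. The 18 lower genes deviated together from the strain mean on the log2(FPKM + 0.5) scale. Δ*PoxKu70* replicate T was the lowest control library in 17 of these 18 genes, with a median deviation of -0.50, and Δ*PoxKu70* replicate S was the highest in 12, with a median deviation of 0.40. Among all tested genes replicate T was the lowest control library in 33.4%, and the median deviation was 0.03. In Δ*PoxMKK1*, replicate S was the lowest mutant library in 14 of the 18 genes (median deviation -0.32), against 34.5% of all tested genes. The sum over the 24 other CWDE genes was also lowest in these libraries, at 4712 FPKM in Δ*PoxMKK1* replicate S and 13423 FPKM in Δ*PoxKu70* replicate T.

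**Figure D4:**
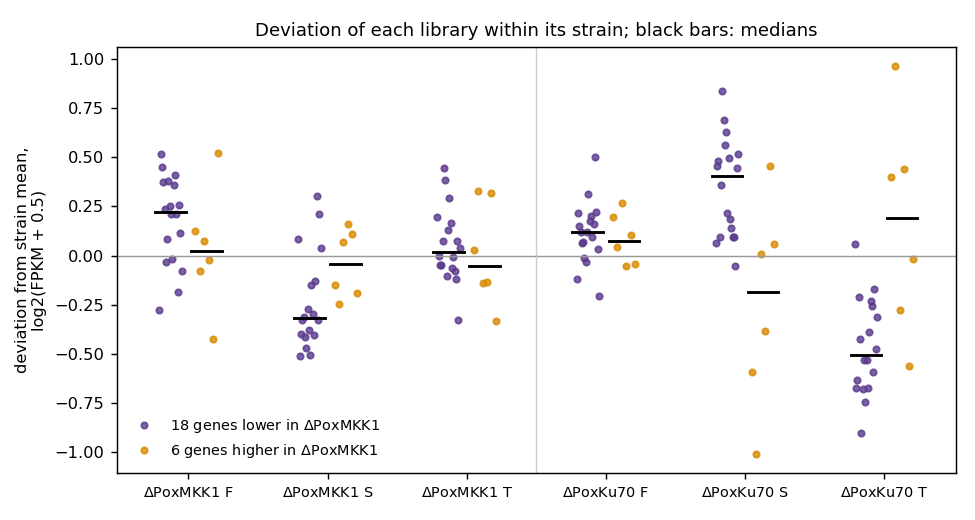
Deviation of each gene in each library from the mean of its strain, in log2(FPKM + 0.5), for the 18 genes lower in ΔPoxMKK1 (purple) and the 6 higher (orange), with black bars for medians. The purple medians are -0.32 in ΔPoxMKK1 replicate S and -0.50 in ΔPoxKu70 replicate T, the lowest of each strain, and the orange medians are -0.04 and 0.19 in the same libraries.

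Leaving out Δ*PoxKu70* replicate T moved the ratio of summed FPKM to 0.444, and leaving out Δ*PoxKu70* replicate S moved it to 0.550. Between 16 and 18 genes were called lower, and 6 were called higher each time, when any of the 6 libraries was left out.

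Several accessory genes stand next to each other, or next to genes of regulators and transporters, by identifier. Positions in the genome were not used here, so adjacency means consecutive identifiers. *POX06599* and *POX06600* are followed by *POX06601*, a GH30 xylanase gene with a CBM1, and the log2 fold changes of the run were -2.16, -1.96 and -4.55. The β-mannosidase gene *POX01961* follows *POX01960*, which encodes the cellulase activator PoxClrB. *POX01960* had 40.6, 31.7 and 32.2 FPKM in Δ*PoxMKK1*, against 100.6, 91.8 and 71.5 FPKM in Δ*PoxKu70* (log2 fold change -1.40, SE 0.173), close to the -1.55 of *POX01961*, and was also lowest in T among the control libraries.

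The feruloyl esterase gene *POX01117* is followed by *POX01118*, a gene with a zinc cluster domain of fungal transcription factors (log2 fold change -1.51, SE 0.211). Genes with sugar transporter domains precede *POX00006* and *POX09085*. These were *POX00005*, with a log2 fold change of -3.61 (SE 0.307), and *POX09084*, with -2.48 (SE 0.144), so each pair moved in the same direction.

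Adjacent identifiers also went in opposite directions. *POX00759* (-1.19) precedes *POX00760* (6.15), and *POX00761* was higher too (2.73). The esterase gene *POX09137* (-1.37) precedes *POX09138* (4.80), and the pectate lyase gene *POX07890* (3.93) follows *POX07889* (-1.90). Directly before or after an accessory gene by identifier stood 44 other genes, of which 42 were tested. Of these 9 were called lower and 8 were called higher, or 21.4% and 19.0%, beside 8.93% and 10.8% of all tested genes.

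**Figure D5:**
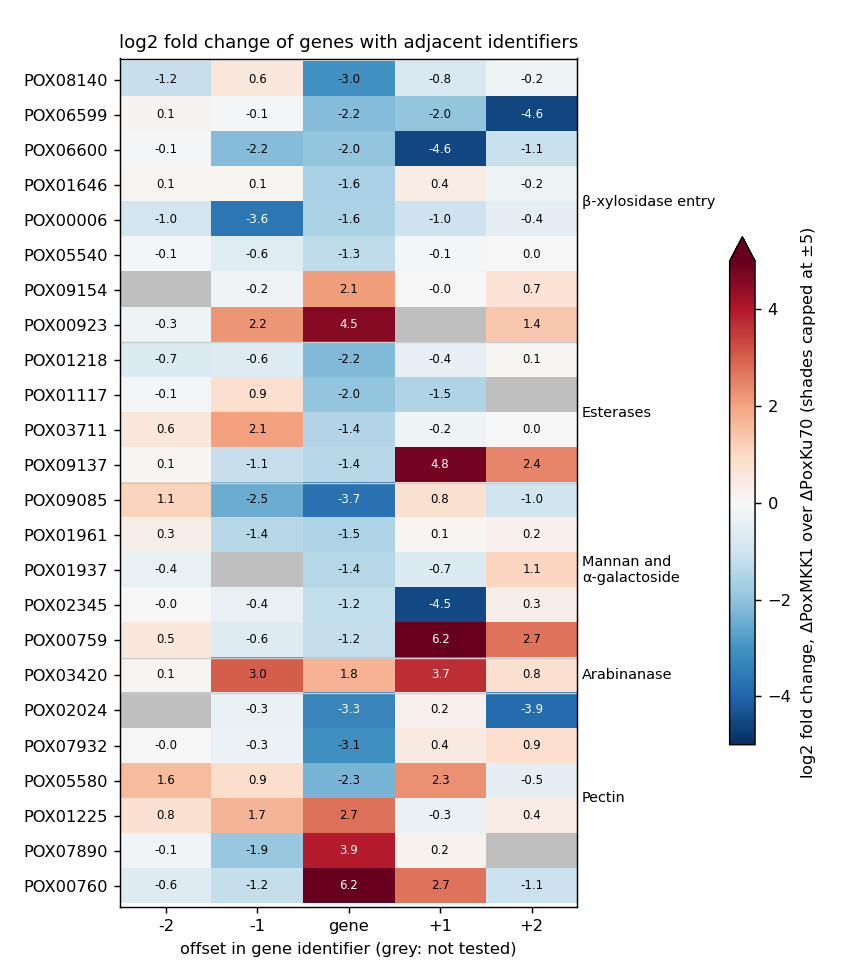
Log2 fold change by edgeR, ΔPoxMKK1 over ΔPoxKu70, of each of the 24 genes (middle column) and of the genes with the 2 identifiers before and after it, with red for higher and blue for lower in ΔPoxMKK1 and grey for genes not tested. Runs of blue stand at *POX06599* and *POX06600*, and *POX00759* and *POX00760* have opposite colours.

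The tool and formula behind the probability of the list are not stated, so the distance of a gene from that limit is not known. A separate measure, which need not match the study's, was computed here from the FPKM of the libraries. It is the share of differences between libraries of a strain that a gene exceeded in both its log2 ratio and its FPKM difference. *POX05540* (0.806) and *POX01117* (0.810) had the lowest values among the 24 genes. The nearest genes outside the list and below 0.8 were sought among genes with an absolute log2 ratio of at least 1. These were *POX08147* (0.7996) and *POX00360* (0.7994). By the log2 ratio of mean FPKM, *POX00759* (-1.12) and *POX02345* (-1.18) were the nearest to the limit among the 24 genes. Among genes with at least 0.8 on the separate measure, *POX06902* (-0.999) and *POX04721* (0.997) were the nearest outside it.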

How the data were processed

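The 6 libraries were grouped by the strain and the replicate letter (F, S or T) in their labels. The authors sequenced oligo(dT)-enriched RNA on a BGISEQ-500 and mapped it to the *P. oxalicum* HP7-1 genome. The submitters' processing notes name BWA 0.7.10-r789, Bowtie2 2.1.0, RSEM 1.2.12 and DESeq2 without their roles. The annotation version and the use of strand were not given in the sources used here. The authors deposited an expected count per gene, an estimated count that is not normalized, and an FPKM value, scaled by the authors for gene length and read number. No accessory gene had a fractional count.

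Expected counts were rounded and fitted in R 4.3.3 by the quasi-likelihood functions of edgeR 4.0.16, with filterByExpr and TMM, on all 8749 genes that passed the filter, without a replicate block. The SE was the absolute log2 fold change divided by the square root of F. Fits were also run on simulated counts with independent noise for each gene. That run did not include deviations shared between genes, as seen for the lower accessory genes. Alternatives were DESeq2 1.42.0, its size factors in edgeR, no filter, no fold minimum, a replicate block, omission of each library, limma 3.58.1 on log2 of FPKM plus 0.5, 0.1 or 1 for genes averaging 1 FPKM or more, a stricter adjusted p (0.01), mean FPKM ratios (0 set to 0.01), CPM for sums, and library sizes alone, which was chosen after seeing the data. Figures used Python 3.11.15 with matplotlib 3.10.9.

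All 24 genes are named. Other genes are named where they are next to the study's thresholds, share a family, have an adjacent identifier or bear on a result. The genes, classes and lists were chosen with earlier results of these data known. The study's own fold changes and probabilities were not used, and 0 identifiers matched the RefSeq table, so no positions or sequences are given.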

Additional observations from a re-analysis of the deposited data

How the results depend on the processing

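The 24 genes kept their direction under every alternative run, and 6 were called higher in each. The count called lower was 18 with DESeq2 and with its size factors in edgeR, 15 at an adjusted p below 0.01, and 17 with no filter, limma at each pseudocount, the ratio of mean FPKM, no fold minimum and library sizes alone, a setting chosen after seeing the data. With 1 library left out it was 16 to 18, and the ratio of summed FPKM was 0.444 to 0.550. As CPM that ratio was 0.479. Over the fits of single genes, 353 values stayed on the same side of the call, 4 lost the call (*POX00759* without Δ*PoxMKK1* replicate F, Δ*PoxMKK1* replicate T or Δ*PoxKu70* replicate F, and *POX03711* without Δ*PoxMKK1* replicate S) and 3 gained it (*POX05540*). The cause was not tested. With a replicate block 17 genes were called lower and 6 higher, and over all tested genes 780 lower and 959 higher, against 781 and 947 without it. Deviations of replicates of the same letter had correlations of 0.336 for F, 0.032 for S and 0.127 for T. Among unlike letters, Δ*PoxMKK1* replicate T and Δ*PoxKu70* replicate S had 0.173, and the other pairs had -0.384 to 0.022. Whether the letters pair the libraries is not settled by these values, and the main fit used no pairing. With 3 libraries a strain and 9 to 51 control counts, *POX00923* had the largest SE of the 24 genes (0.456). It also shifted most when 1 library was left out (1.63-fold). *POX00760*, with a mean of 0.64 FPKM in Δ*PoxKu70*, moved with the value added to FPKM. Its log2 fold change was 6.15 by edgeR and 6.13 by DESeq2. By limma it was 5.96 with 0.1 added to FPKM, 5.35 with 0.5 and 4.85 with 1. With 1 library left out it was 5.84 to 6.315 by edgeR. Both changes rest on few control counts. The size of the change is uncertain for *POX00923*, and for *POX00760* it depends on the value added.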
